A study of Caenorhabditis elegans with 3 samples.

Results

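Messenger RNAs for proteins of the synapse, of acetylcholine signalling and of GABA signalling were followed in whole Caenorhabditis elegans larvae. The 10 genes are unc-17, cha-1, unc-25, unc-47, snt-1, unc-64, ric-4, snb-1, rab-3 and unc-13. A row was taken when the gene name in both deposited gene tables was one of these 10 names. Of the 10 genes, 9 had a row of their own, out of 46135 genes listed. The exception was cha-1, whose transcript sits inside the row of unc-17. Of the 9 rows, 8 were above 0 in all 3 libraries, and rab-3 was listed at 0 in all 3.

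The animals were wild-type N2 larvae at the L4 stage, fed from the L1 stage for 36 h on bacteria carrying 1 RNAi clone. The clones were ham-3, swsn-2.2 and gfp, and each gave 1 library of poly(A) RNA sequenced in pairs of 73 bp reads. HAM-3 and SWSN-2.2 are related subunits of SWI/SNF, a chromatin remodelling complex, and gfp is a sequence that N2 lacks. The growth protocol gives 35 °C and the series design gives 25 °C, so the temperature is uncertain. All groups share the strain, the stage and the feeding, and no library is a mutant. Neurons of wild-type C. elegans are known to take up RNAi from feeding poorly, and these whole-animal libraries do not show in which cells a target was lowered.

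The library labelled ham-3(RNAi) had its target ham-3 at 23.1 FPKM, while swsn-2.2(RNAi) had it at 31.5 and gfp(RNAi) at 19.3. FPKM scales sequenced fragments by transcript length and library size, so levels of different genes can be set side by side. The ham-3 level goes against the label of its library in that it is not lower there. The gene swsn-2.2 was at 37.8 FPKM in the ham-3(RNAi)-labelled library, listed at 0 in swsn-2.2(RNAi) and at 19.3 FPKM in gfp(RNAi). The inferred depth was 30900000 fragments for the ham-3(RNAi)-labelled library, 30950000 for swsn-2.2(RNAi) and 19750000 for gfp(RNAi). Each group has 1 library and no replicate, so differences are between 2 libraries and could not be tested across animals.

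A chemical synapse loads transmitter into vesicles, docks and primes them at the active zone, and fuses them when calcium enters. Acetylcholine is made by choline acetyltransferase (CHA-1) and packed by the transporter UNC-17. GABA is made by glutamic acid decarboxylase (UNC-25) and packed by UNC-47. Fusion is carried by the SNARE proteins synaptobrevin (SNB-1, on the vesicle), syntaxin (UNC-64) and SNAP-25 (RIC-4, both on the plasma membrane). Synaptotagmin (SNT-1) senses calcium, UNC-13 primes vesicles, and RAB-3 is a small GTPase on the vesicle. In C. elegans, motor neurons that release acetylcholine excite body wall muscle and those that release GABA relax it.

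The SNARE genes were the highest of these genes. The vesicle SNARE gene snb-1 (T10H9.4; WBcel235 chromosome V, 6655562 to 6656501, minus strand) was at 256 FPKM in the ham-3(RNAi)-labelled library, 258 in swsn-2.2(RNAi) and 266 in gfp(RNAi). It lay above 96.6%, 96.5% and 96.6% of the genes above 0 in those libraries, in the same order. No other gene of the 10 came near this level. The syntaxin gene unc-64 (F56A8.7; chromosome III, 13277258 to 13283887, plus strand) was at 37.7, 46 and 42.3 FPKM in that order. The SNAP-25 gene ric-4 (Y22F5A.3; chromosome V, 10261131 to 10270314, minus strand) was at 39.1, 40.2 and 38 FPKM. The level of snb-1 was 6.79 times that of unc-64 in the ham-3(RNAi)-labelled library, 5.61 times in swsn-2.2(RNAi) and 6.29 times in gfp(RNAi). The levels of ric-4 and unc-64 lay close together, with ric-4 at 1.04, 0.875 and 0.899 times unc-64 in the same libraries, so their order was not the same in every library and their ranges over the libraries overlap.

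The calcium sensor and the priming factor were lower in level than the SNAREs. The gene snt-1 (F31E8.2; chromosome II, 6810963 to 6816433, plus strand) was at 11.8 FPKM in the ham-3(RNAi)-labelled library, 13.1 in swsn-2.2(RNAi) and 12.3 in gfp(RNAi). The gene unc-13 (ZK524.2; chromosome I, 7422785 to 7454116, plus strand) was at 9.93, 10.4 and 10.1 FPKM in that order. Both stood near the middle of the genes above 0, at percentiles 54.2, 55.7 and 54.3 for snt-1 and 51.1, 51.7 and 50.7 for unc-13. The ranges of unc-25, snt-1, unc-13 and the unc-17 row over the libraries do not overlap, so these genes keep their order in all 3.

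The transmitter genes spanned a wider range of levels. The GABA synthesis gene unc-25 (Y37D8A.23; chromosome III, 12942651 to 12949883, plus strand) was at 23.9 FPKM in the ham-3(RNAi)-labelled library, 23.9 in swsn-2.2(RNAi) and 28.3 in gfp(RNAi). The GABA transporter gene unc-47 (T20G5.6; chromosome III, 10183762 to 10186260, minus strand) was the lowest of the genes above 0, at 1.49, 1.66 and 1.14 FPKM in that order. Its values rest on 65, 72 and 31 inferred fragments, against 5036, 5088 and 3291 for snb-1. The level of unc-25 was 16 times that of unc-47 in the ham-3(RNAi)-labelled library, 14.4 times in swsn-2.2(RNAi) and 24.8 times in gfp(RNAi). Both genes are known to be expressed in GABA neurons, and unc-25 was the higher of the pair in every library.

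The row of unc-17 (ZC416.8; chromosome IV, 3618259 to 3624699, minus strand) was at 7.87 FPKM in the ham-3(RNAi)-labelled library, 7.38 in swsn-2.2(RNAi) and 7.05 in gfp(RNAi). That row holds 2 transcripts. By the annotation, ZC416.8a encodes the vesicular transporter UNC-17 and ZC416.8b encodes choline acetyltransferase, the product of cha-1 (chromosome IV, 3613931 to 3624697, minus strand). The genes share a start region, and the transcripts, of 1922 and 2073 bp, share 66 exonic bases, so nearly all of their fragments can be assigned. The unc-17 transcript was at 5.32 FPKM in the ham-3(RNAi)-labelled library, 4.46 in swsn-2.2(RNAi) and 4.16 in gfp(RNAi), and the cha-1 transcript was at 2.55, 2.93 and 2.89 FPKM. The transporter transcript was the higher of the pair in each library, by 2.09, 1.52 and 1.44 times in the same order.

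The vesicle GTPase gene rab-3 (C18A3.6; chromosome II, 5721767 to 5727853, minus strand) was listed at 0 in the ham-3(RNAi)-labelled library, in swsn-2.2(RNAi) and in gfp(RNAi), for all 3 of its transcripts. The authors' deposited table gives it a p-value of 1 in both comparisons. The gene C18A3.1 (damt-1), which overlaps it on the opposite strand, was also listed at 0 in all 3 libraries. Of the other genes of the C18A3 name, picked with their values known, C18A3.13 was also listed at 0 throughout. The gene C18A3.2 was at 19.5 FPKM in the ham-3(RNAi)-labelled library, 22.1 in swsn-2.2(RNAi) and 21.2 in gfp(RNAi), C18A3.3 at 93.7, 102 and 87.7 FPKM, and C18A3.7 at 29.3, 34.9 and 24.3 FPKM. An entry of 0 in these tables need not be a measured absence. The ham-3(RNAi)-labelled library listed at 0 160 genes that reached 10 FPKM elsewhere, against 178 in swsn-2.2(RNAi) and 267 in gfp(RNAi). No fold is given for rab-3.

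**Figure D1:**
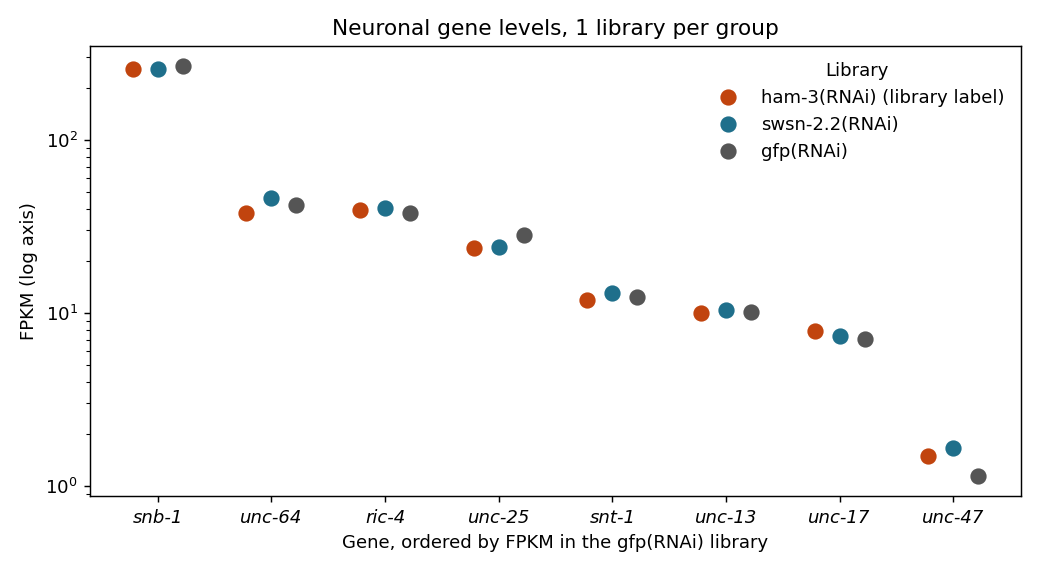
FPKM of the 8 genes above 0, on a log axis, with 1 point per library (ham-3(RNAi)-labelled library, swsn-2.2(RNAi) and gfp(RNAi), from left to right for each gene). Levels run from 256, 258 and 266 FPKM for snb-1 down to 1.49, 1.66 and 1.14 FPKM for unc-47, and the points of 1 gene lie far closer together than the genes do.

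The spread of each gene over the libraries was small beside the spread between genes. The highest value over the lowest was 1.04-fold for snb-1, 1.05-fold for unc-13, 1.06-fold for ric-4, 1.11-fold for snt-1, 1.12-fold for the unc-17 row, 1.19-fold for unc-25, 1.22-fold for unc-64 and 1.45-fold for unc-47. The plot of levels by gene shows this as tight groups of points. The widest of these folds belongs to the gene with the fewest fragments.

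Against gfp(RNAi), the ham-3(RNAi)-labelled library had none of the 8 genes beyond 1.5-fold. The ratio was taken on the log2 scale of FPKM + 1, among genes with a mean of at least 1 FPKM over the pair, and this scale understates the difference of low genes. The count was 0 higher and 0 lower, where 3.69% of 14683 genes were at least 1.5-fold higher and 4.01% were at least 1.5-fold lower. Among genes above 0 in both libraries those shares were 1.64% and 2.85%, so 0 of 8 is near the background. Of the 8 ratios, 3 were above 0 and 5 below, with a median of -0.04 and a range of -0.24 to 0.22. The median of all genes was 0.03, and 56.1% of genes were above 0.

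The GABA synthesis gene unc-25 stood lowest in that comparison. It was at 23.9 FPKM in the ham-3(RNAi)-labelled library and 28.3 FPKM in gfp(RNAi), a log2 FPKM ratio of -0.25 (95% counting interval -0.38 to -0.11). That is a difference of -15.8% (-23.2% to -7.61%). Intervals were computed from inferred fragments and compare these 2 libraries, not the conditions. They cover counting error only and treat the inferred fragments as independent. Sequenced copies made by PCR are not independent molecules, so the intervals may be too narrow even for that error. In a whole-animal library, fewer cells of a type and less RNA per cell cannot be told apart. The authors' deposited table gives unc-25 a p-value of 0.0664 in this comparison.

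Syntaxin was the other gene whose interval lay below 0. The gene unc-64 was at 37.7 FPKM in the ham-3(RNAi)-labelled library and 42.3 FPKM in gfp(RNAi), a log2 FPKM ratio of -0.16 (-0.31 to -0.02). For unc-64 the authors' deposited p-value (Cuffdiff) in this comparison is 0.28. The 3' end of unc-64 overlaps set-25, a gene on the opposite strand. The level of set-25 was 3.80, 3.57 and 2.87 FPKM in the ham-3(RNAi)-labelled library, swsn-2.2(RNAi) and gfp(RNAi). The labels do not say whether strand was kept, so fragments in the overlap cannot be told apart. Over all genes, counting intervals lay below 0 for 15.3% and above 0 for 21.7% of 12664 genes, so an interval below 0 was common and 2 of 8 is no result about these genes.

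The remaining log2 FPKM ratios of the ham-3(RNAi)-labelled library over gfp(RNAi) had counting intervals that included 0. They were -0.06 (-0.12 to 0.01) for snb-1, -0.06 (-0.25 to 0.13) for snt-1, -0.02 (-0.14 to 0.09) for unc-13 and 0.04 (-0.10 to 0.18) for ric-4. They were 0.16 (-0.07 to 0.39) for the unc-17 row and 0.39 (-0.25 to 1.05) for unc-47. The counts of snb-1 bound its difference to between -7.90% and 0.61%, while those of unc-47 leave any value between -16.1% and 107%.

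Taken separately, the cholinergic transcripts lay on opposite sides of 0 in the ham-3(RNAi)-labelled library. The unc-17 transcript rested on 288 inferred fragments in that library and 143 in gfp(RNAi), with a log2 FPKM ratio of 0.36 (0.06 to 0.66). The cha-1 transcript rested on 150 and 108 fragments in the same order, with a ratio of -0.18 (-0.55 to 0.19). The authors' deposited table gives a p-value of 0.0973 for the unc-17 transcript and 0.442 for the cha-1 transcript. Over all genes, 21.7% had an interval above 0 in this comparison. The split of the row was chosen after seeing the data, and the difference between the pair was not tested.

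In swsn-2.2(RNAi), again 0 of the 8 genes were at least 1.5-fold higher and 0 were at least 1.5-fold lower than in gfp(RNAi). The background was 4.14% higher and 2.54% lower of 14713 genes. Of the 8 ratios, 6 were above 0 and 2 below, with a median of 0.07 and a range of -0.24 to 0.31. The median of all genes was 0.08, and 65.5% of genes were above 0, so the direction of the 8 genes is that of the table. Both comparisons share the gfp(RNAi) library, and a deviation of that library enters both.

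The gene unc-25 was at 23.9 FPKM in swsn-2.2(RNAi) and 28.3 FPKM in gfp(RNAi), a log2 FPKM ratio of -0.25 (-0.38 to -0.11). It was the single gene of the 8 with an interval below 0 here, where 11.8% of 12730 genes had one, and no interval lay above 0, where 29.1% of genes had one. The authors' deposited table gives unc-25 a p-value of 0.0426 in this comparison and does not place it in its list of lower genes. The FPKM of unc-25 was nearly the same in both RNAi libraries, and the gfp(RNAi) library is the one that stood apart.

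Syntaxin lay on the other side of gfp(RNAi) in this library. The gene unc-64 was at 46 FPKM in swsn-2.2(RNAi) and 42.3 FPKM in gfp(RNAi), a log2 FPKM ratio of 0.12 (-0.01 to 0.26). The low GABA transporter gene unc-47 had the ratio farthest from 0, 0.54, with an interval of -0.09 to 1.19. The others were -0.04 (-0.11 to 0.02) for snb-1, 0.05 (-0.07 to 0.16) for unc-13, 0.07 (-0.16 to 0.30) for the unc-17 row, 0.08 (-0.06 to 0.23) for ric-4 and 0.09 (-0.10 to 0.28) for snt-1. The unc-17 and cha-1 transcripts gave 0.10 (-0.20 to 0.41) and 0.02 (-0.34 to 0.38).

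**Figure D2:**
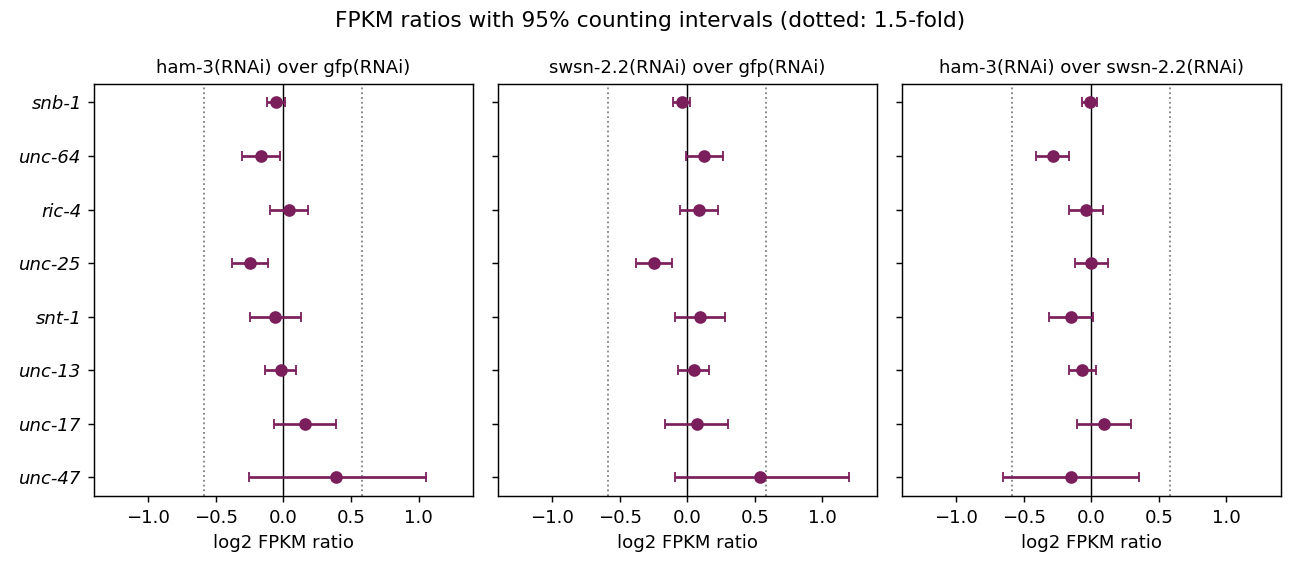
Log2 FPKM ratio of the 8 genes in the 3 pairs of libraries, with bars for the 95% counting interval and dotted lines at 1.5-fold. The interval of unc-25 lies below 0 in both comparisons with gfp(RNAi), that of unc-64 lies below 0 in the ham-3(RNAi)-labelled library against gfp(RNAi) and against swsn-2.2(RNAi), and every point lies inside the dotted lines.

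Set against each other, the RNAi libraries differed most at unc-64. Syntaxin was at 37.7 FPKM in the ham-3(RNAi)-labelled library and 46 FPKM in swsn-2.2(RNAi), a log2 FPKM ratio of -0.29 (-0.41 to -0.16), or -18.1%. Counting intervals lay below 0 for 29.4% of 12772 genes in this comparison. The ratio of unc-25 was -0.0024 (-0.13 to 0.12). An interval above 0 was found for 16.8% of genes and for none of the 8. Of the 8 genes 1 was above 0 and 7 below, with a median of -0.05, beside a median of -0.05 over all genes. In the same comparison 40.3% of all genes were above 0, so most genes lay below. At 1.5-fold, 0 were higher and 0 lower, against 2.93% and 4.66% of 14738 genes, or 1.45% and 3.4% of those above 0 in both libraries. The unc-17 transcript had a ratio of 0.26 (0.0044 to 0.51) and the cha-1 transcript one of -0.20 (-0.53 to 0.12). That interval of the unc-17 transcript lay above 0, where 16.8% of genes had one.

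Shifting every ratio by the median of the genes above 0 (0.03, 0.09 and -0.06 in the 3 pairs) left unc-25 and unc-64 as described. It put snb-1 at -0.09 (-0.15 to -0.02) in the ham-3(RNAi)-labelled library and at -0.13 (-0.19 to -0.06) in swsn-2.2(RNAi), both over gfp(RNAi). On that scale 18.8%, 19.4% and 21% of genes had an interval below 0 in the 3 pairs. With the most fragments, snb-1 has the narrowest interval of the 8. The authors' deposited lists hold 259 higher and 549 lower genes for ham-3(RNAi) and 580 higher and 349 lower genes for swsn-2.2(RNAi). None of the 8 genes is in these lists. The lists hold 1.83%, 3.78%, 4.17% and 2.42% of the genes kept that the authors tested, in the same order.

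The transcript tables split 8 of the 9 rows into more than 1 transcript and list 22 transcripts in all, 3 of them the rab-3 transcripts listed at 0. The split is an estimate of Cufflinks from fragments that most of these transcripts share, so counting intervals are given for the unc-17 and cha-1 transcripts alone. At 1.5-fold on the FPKM + 1 scale, 0 of 16 kept transcripts were higher and 3 lower in the ham-3(RNAi)-labelled library than in gfp(RNAi). For transcripts of genes with several, the background was 13.3% higher and 14.9% lower. In swsn-2.2(RNAi) against gfp(RNAi), 1 of 16 was higher and 1 lower, with a background of 13.7% and 13.9%. Between the RNAi libraries, 0 of 15 were higher and 2 lower in the ham-3(RNAi)-labelled library, with a background of 11.6% and 13%. These counts are near the background, and the values follow as a description.

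The SNAP-25 gene ric-4 has a pair of transcripts that share 904 exonic bases, with 102 bases of its own for transcript a and 233 for transcript b. Transcript Y22F5A.3a was at 32.8 FPKM in the ham-3(RNAi)-labelled library, 33.6 in swsn-2.2(RNAi) and 25.2 in gfp(RNAi). Transcript Y22F5A.3b was at 6.23, 6.63 and 12.7 FPKM in that order. Its share of the gene was 16% and 16.5% in the RNAi libraries and 33.5% in gfp(RNAi). The log2 ratio of FPKM + 1 for transcript b was -0.93 in the ham-3(RNAi)-labelled library and -0.85 in swsn-2.2(RNAi), each over gfp(RNAi). In the authors' deposited table its p-values are 2.38e-05 and 2.95e-05, in a table where 21.9% and 23.1% of such transcripts had a p-value of at most 0.01. The level of the whole gene differed by far less, as given above.

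Syntaxin and GABA synthesis transcripts also divided differently. The minor unc-64 transcript F56A8.7b was at 1.26 FPKM in the ham-3(RNAi)-labelled library, 1.57 in swsn-2.2(RNAi) and 2.56 in gfp(RNAi), which is 3.33%, 3.41% and 6.06% of the gene. The main transcript F56A8.7a was at 36.4, 44.4 and 39.7 FPKM. For ric-4 as for unc-64, the minor transcript took its largest share in gfp(RNAi), the library with the fewest fragments. Minor transcripts of other rows lay on both sides. The share of unc-25 transcript c was largest in gfp(RNAi), at 26.4%, and that of transcript b was smallest there, at 5.94%. The unc-47 transcript T20G5.6.2 was listed at 0 in gfp(RNAi). Whether depth has a part in these shares was not tested.

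For unc-25, transcript Y37D8A.23a was at 19.5 FPKM in the ham-3(RNAi)-labelled library, 14.8 in swsn-2.2(RNAi) and 19.2 in gfp(RNAi). Transcript Y37D8A.23b was at 1.98, 4.22 and 1.68 FPKM, and Y37D8A.23c was at 2.37, 4.84 and 7.48 FPKM. Transcript c has 0 bases of its own and transcript b has 10, so their division rests on few positions. Cufflinks assigned the low value of unc-25 in the ham-3(RNAi)-labelled library to transcript c, which the fragments cannot show directly. The log2 ratio of FPKM + 1 over gfp(RNAi) was -1.33 for c and 0.02 for a. In swsn-2.2(RNAi) the ratio was -0.35 for a, 0.96 for b and -0.54 for c. The gene totals of the RNAi libraries were nearly equal and their divisions were not.

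**Figure D3:**
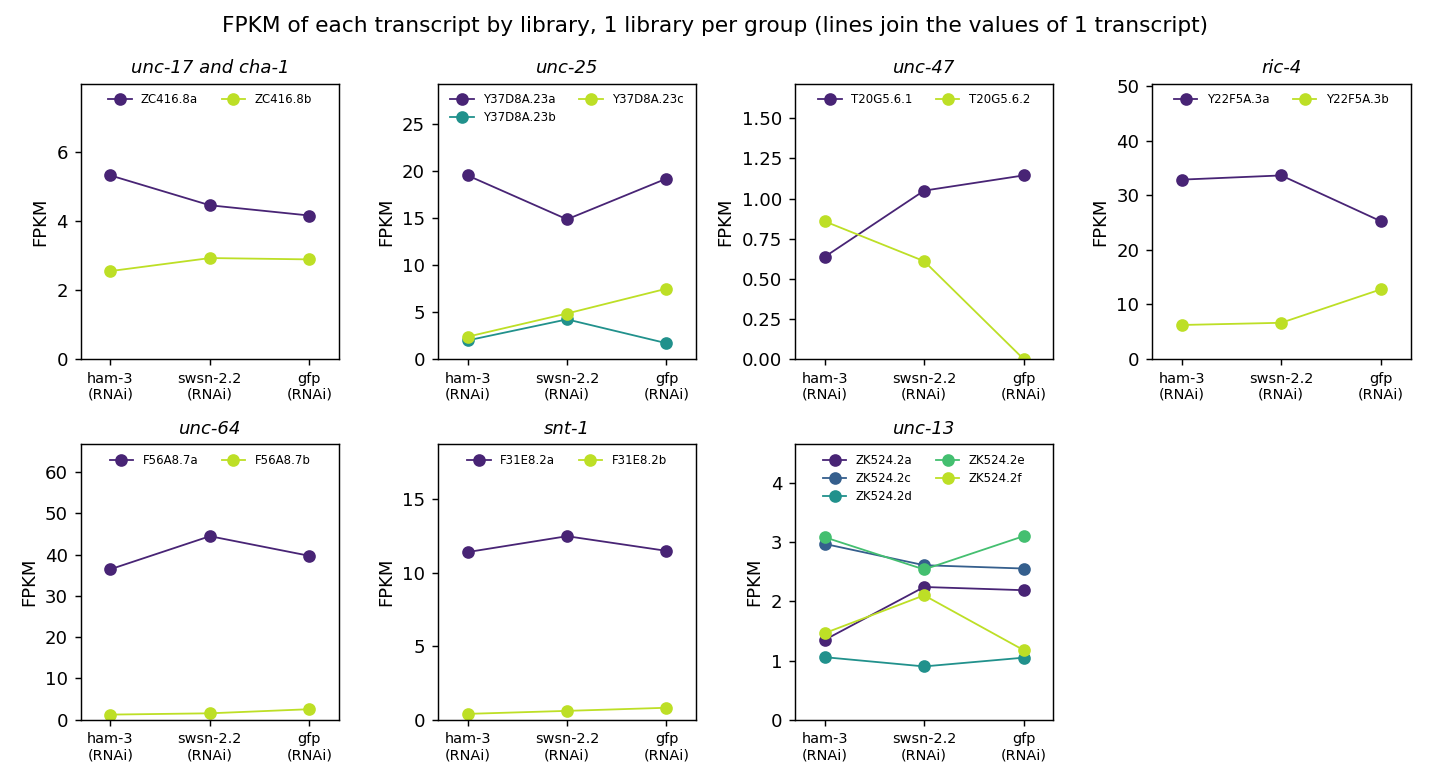
FPKM of each transcript of the 7 rows with more than 1 transcript above 0, by library (ham-3(RNAi)-labelled library, swsn-2.2(RNAi), gfp(RNAi)), with lines joining the values of 1 transcript. The b transcript of ric-4 is at 6.23 and 6.63 FPKM in the RNAi libraries and 12.7 FPKM in gfp(RNAi), and the a and b transcripts of ZC416.8 (unc-17 and cha-1) stay in the same order in all libraries.

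The other rows had 1 main transcript or several of similar level. The snt-1 transcript F31E8.2a was at 11.4 FPKM in the ham-3(RNAi)-labelled library, 12.5 in swsn-2.2(RNAi) and 11.5 in gfp(RNAi), and F31E8.2b was at 0.402, 0.606 and 0.818. For unc-47, T20G5.6.1 was at 0.636, 1.05 and 1.14 FPKM, and T20G5.6.2 was at 0.858 and 0.610 FPKM in the RNAi libraries and listed at 0 in gfp(RNAi). The 5 unc-13 transcripts in the tables lay between 0.902 and 3.1 FPKM, and the annotation holds 11. Farthest from gfp(RNAi) in the ham-3(RNAi)-labelled library was ZK524.2a, at 1.35 FPKM against 2.19. In swsn-2.2(RNAi) it was ZK524.2f, at 2.10 FPKM against 1.18 in gfp(RNAi). Long unc-13 isoforms are known to differ in their first exons and in where at the active zone they act.

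Related genes of the same families showed where the neuronal forms stand. The synaptobrevin-like gene snb-2 was at 59.9 FPKM in the ham-3(RNAi)-labelled library, 65.4 in swsn-2.2(RNAi) and 63.8 in gfp(RNAi), below snb-1 in each. Among the synaptotagmin genes, snt-4 was at 38.5, 43.0 and 37.6 FPKM, above snt-1 in each, and snt-2 was at 10.5, 11.8 and 12.9 FPKM. The levels of snt-3, snt-5, snt-6 and snt-7 ran from 0.961 to 6.55 FPKM.

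A further 128 genes of the pathways around these proteins were looked up, of which 124 had a row. Of these, 113 were above 0 in all libraries, 5 were listed at 0 in some and 6 in all. Those at 0 in all were unc-36, slo-1, unc-44, klc-2, jip-1 and gar-3. Genes above 0 in all libraries are described. In the ham-3(RNAi)-labelled library over gfp(RNAi), 102 were kept, 57 were above 0 and the median was 0.03. In swsn-2.2(RNAi) over gfp(RNAi), 101 were kept, 65 were above 0 and the median was 0.03. Over all genes kept, 56.1% and 65.5% were above 0 in these comparisons, with medians of 0.03 and 0.08. On the scale of FPKM + 1, none was 1.5-fold higher or lower in either comparison. The background on that scale, among genes above 0 in both libraries, was 1.64% higher and 2.85% lower, and 2.33% higher and 1.45% lower. By FPKM alone some genes passed 1.5-fold, on both sides of gfp(RNAi). In swsn-2.2(RNAi) and gfp(RNAi), unc-63 was at 4.14 and 2.47 FPKM and cpx-2 at 0.822 and 1.63 FPKM. Between the RNAi libraries, on the scale of FPKM + 1, 1 gene of 100, aex-4, was 1.5-fold lower in the ham-3(RNAi)-labelled library and 0 were higher. The background was 3.4% lower and 1.45% higher, so this count is below the background on that scale. By FPKM alone, genes such as unc-30 also passed 1.5-fold, at 1.31 FPKM in the ham-3(RNAi)-labelled library and 1.97 in swsn-2.2(RNAi).

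Vesicle release and active zone genes had medians of 0.03 in the ham-3(RNAi)-labelled library and 0.03 in swsn-2.2(RNAi), each over gfp(RNAi) and over 35 genes above 0. The synapsin gene snn-1 was at 5.04 FPKM in the ham-3(RNAi)-labelled library, 4.22 in swsn-2.2(RNAi) and 3.42 in gfp(RNAi). The synaptobrevin-like gene snb-7 was at 6.72, 6.47 and 4.75 FPKM in that order. At the low end were the complexin gene cpx-2, at 1.03, 0.822 and 1.63 FPKM, the synaptotagmin gene snt-7, at 0.961, 1.37 and 1.42 FPKM, and syd-1, whose protein helps assemble presynaptic sites, at 2.50, 2.08 and 2.78 FPKM. The other complexin gene, cpx-1, was at 20.8, 23 and 17.6 FPKM. The UNC-64 partner gene unc-18 was at 38.4, 38.6 and 38 FPKM, close to syntaxin and SNAP-25 in level. The SNAP-25-like gene aex-4, which acts in intestinal secretion, was at 6.10, 9.82 and 6.25 FPKM, and the authors' deposited list for swsn-2.2(RNAi) holds it as higher. The gene nsf-1 stood at 35.3 FPKM in the ham-3(RNAi)-labelled library, with an entry of 0 elsewhere. The gene unc-31, for the CAPS protein of dense-core vesicle release, had an entry of 0 in the ham-3(RNAi)-labelled library and was at 3.29 FPKM in swsn-2.2(RNAi) and 3.36 in gfp(RNAi).

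Recycling and axonal transport genes had medians of 0.05 in the ham-3(RNAi)-labelled library and -0.02 in swsn-2.2(RNAi) over 15 genes. The kinesin-binding protein gene unc-76 was at 30.3 FPKM in the ham-3(RNAi)-labelled library, 35.1 in swsn-2.2(RNAi) and 27 in gfp(RNAi), and unc-33, of axonal microtubule organisation, at 17.5, 16.3 and 15.5 FPKM. At the low end, the stonin gene unc-41 was at 3.42, 3.64 and 4.11 FPKM and the kinesin heavy chain gene unc-116 at 111, 101 and 114 FPKM. The gene for dynamin, dyn-1, was at 27, 24.0 and 27.5 FPKM, and the vesicle kinesin gene unc-104 was at 11, 12.7 and 11 FPKM.

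Acetylcholine handling genes surround unc-17 and cha-1. The choline transporter gene cho-1 was at 3.04 FPKM in the ham-3(RNAi)-labelled library, 2.47 in swsn-2.2(RNAi) and 2.33 in gfp(RNAi). The transporter gene snf-6 was at 9.19, 8.28 and 7.71 FPKM in that order, the order of the unc-17 transcript. The gene unc-3, a transcription factor of cholinergic motor neurons, was at 0.978, 1.0 and 1.32 FPKM, the opposite order. The acetylcholinesterase genes ace-2 and ace-3 were at 14.7, 13.9 and 14.7 FPKM and at 2.02, 2.42 and 2.32 FPKM. The medians of the list were 0.08 and 0.03 over 6 genes. Acetylcholine receptor genes had medians of 0.06 and 0.05 over 16 genes, with 11 and 13 above 0, where 56.1% and 65.5% of all genes were. The levamisole receptor subunit gene unc-63 was at 3.74, 4.14 and 2.47 FPKM, with log2 ratios over gfp(RNAi) of 0.45 and 0.57. The authors' deposited list holds it as higher for swsn-2.2(RNAi). The gene oig-4, for a protein that stabilises receptor clusters at the muscle, was at 7.29, 6.20 and 5.25 FPKM, and the receptor subunit gene acr-12 was at 2.29, 3.04 and 2.16 FPKM. At the low end of the list, the motor neuron receptor subunit gene acr-2 was at 1.20, 1.80 and 1.76 FPKM, with log2 ratios of -0.33 and 0.02. The muscarinic-type receptor genes gar-1 and gar-2 were at 2.18, 1.71 and 2.2 FPKM and at 4.78, 4.51 and 5.0 FPKM, with ratios of -0.24 and -0.12 in swsn-2.2(RNAi). Receptor genes thus lay on both sides of gfp(RNAi).

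GABA genes around unc-25 and unc-47 had medians of -0.02 in the ham-3(RNAi)-labelled library and 0.08 in swsn-2.2(RNAi), over 11 genes. The muscle GABA receptor gene unc-49 was at 27.8 FPKM in the ham-3(RNAi)-labelled library, 27.7 in swsn-2.2(RNAi) and 32.1 in gfp(RNAi), log2 ratios of -0.20 and -0.21, and like unc-25 it was highest in gfp(RNAi). The gene unc-46, whose protein sorts UNC-47 to vesicles, was at 1.4, 1.07 and 0.870 FPKM, and unc-30, a transcription factor of GABA motor neurons, was at 1.31, 1.97 and 1.65 FPKM. The GABA-B receptor gene gbb-1 was at 2.95, 2.83 and 2.58 FPKM, and unc-55, a nuclear receptor gene of GABA motor neurons, at 1.02, 1.06 and 1.31 FPKM. The GABA transaminase gene gta-1 was at 276, 319 and 325 FPKM, and the uptake transporter gene snf-11 at 11.4, 12.3 and 10.4 FPKM. The receptor subunit gene gab-1, picked with its values known, was at 0.686, 1.05 and 1.27 FPKM and is in the authors' deposited list of lower genes for ham-3(RNAi). The GABA genes therefore did not share 1 order of libraries.

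**Figure D4:**
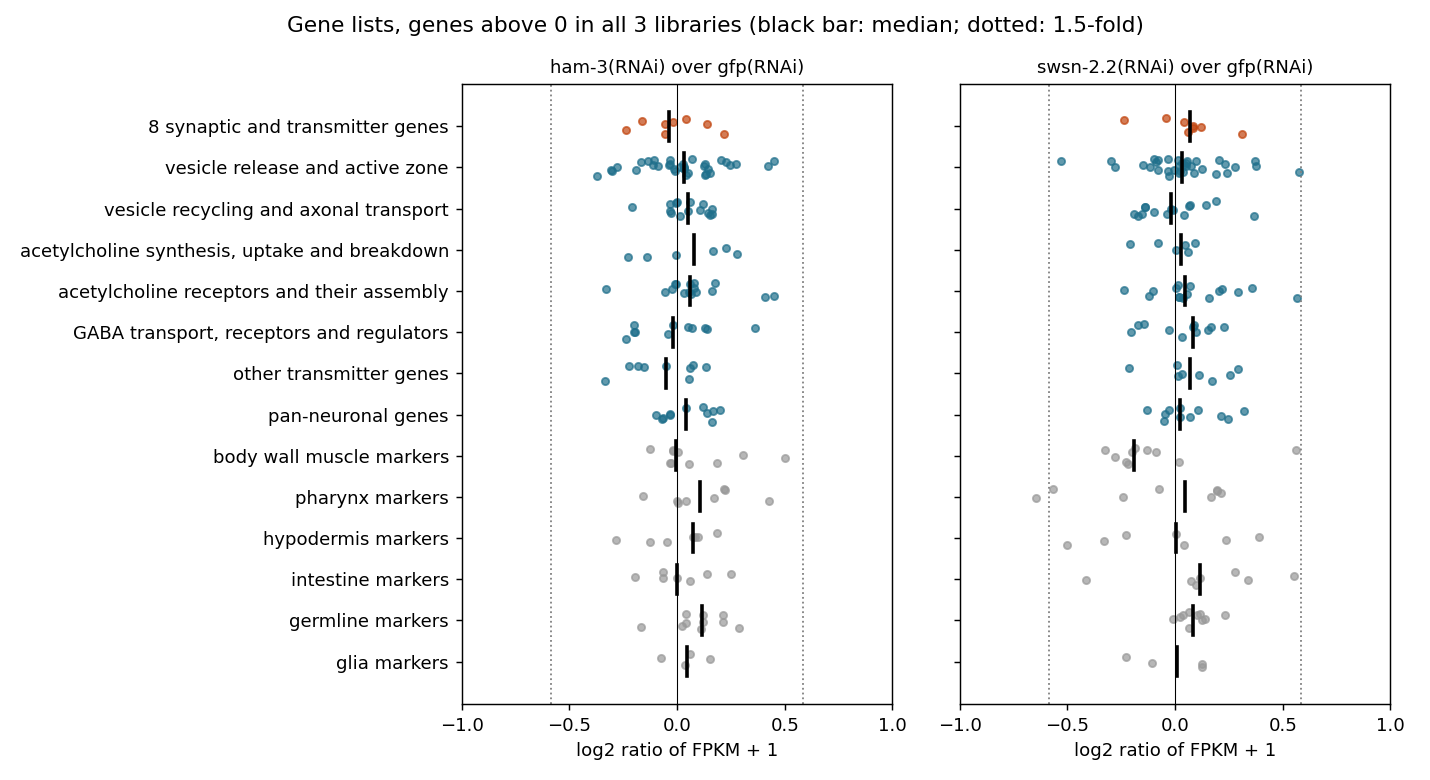
Log2 ratio of FPKM + 1 for each gene above 0 in all libraries, by list, in the ham-3(RNAi)-labelled library over gfp(RNAi) (left) and in swsn-2.2(RNAi) over gfp(RNAi) (right), with black bars for medians and dotted lines at 1.5-fold. The 8 synaptic and transmitter genes have medians of -0.04 and 0.07, and no neuronal list has a median beyond 0.08 on either side of 0, while body wall muscle markers have a median of -0.19 in swsn-2.2(RNAi).

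Markers of neurons and of other tissues give the setting of these values, since the libraries are of whole animals. Of 12 pan-neuronal genes 11 were above 0 in all libraries, and ehs-1 was listed at 0 in the ham-3(RNAi)-labelled library alone. The FPKM of all 12 summed to 659 in the ham-3(RNAi)-labelled library, 638 in swsn-2.2(RNAi) and 636 in gfp(RNAi). The single gene tba-1 gave 275, 242 and 250 FPKM of these sums, and ehs-1 entered the first as 0. The sums are therefore not read as a measure of neuronal RNA. The medians of the 11 genes were 0.04 and 0.02 over gfp(RNAi). The largest ratios were those of ric-19 (0.20) and tbb-4 (0.17) in the ham-3(RNAi)-labelled library and of ric-19 (0.32) and maco-1 (0.25) in swsn-2.2(RNAi). The smallest were those of rgef-1 (-0.10) and unc-119 (-0.07) in the ham-3(RNAi)-labelled library and of egl-3 (-0.13) and unc-119 (-0.05) in swsn-2.2(RNAi). Body wall muscle markers, the targets of these motor neurons, had medians of -0.01 and -0.19, with 8 of 10 below 0 in swsn-2.2(RNAi), and summed FPKM of 5261, 5072 and 5436 over all 11 markers. Germline markers had medians of 0.11 and 0.08, with 9 of 10 above 0 in each comparison. Over all genes the medians were 0.03 and 0.08, and 56.1% and 65.5% of genes were above 0. Pharynx markers had medians of 0.11 and 0.05, hypodermis 0.07 and 0.01, intestine 0.00 and 0.11, and glia 0.05 and 0.01. Single markers lay farther from 0 in swsn-2.2(RNAi) than these medians do. The myosin genes myo-1 and myo-2, of pharyngeal muscle, had ratios of -0.64 and -0.57 there, and 0.17 and 0.22 in the ham-3(RNAi)-labelled library. The authors' deposited lists for swsn-2.2(RNAi) hold myo-2, dpy-13, sqt-3 and elt-7 as lower and hlh-1, elt-3 and vit-2 as higher. The part of these marker values in the ratios of the 8 genes was not tested.

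The 6 pathway genes nearest to the median pair of the 8 genes (-0.04 and 0.07) were sought among 102 genes by the straight-line distance of their log2 ratios over gfp(RNAi). They were deg-3, elks-1, lgc-38, snt-6, gbb-2 and unc-57, at distances of 0.02 to 0.04. The measure uses 3 libraries only, and many genes lie near 0 in both comparisons.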

How the data were processed

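Poly(A) RNA of 3 libraries was measured, 1 per group, and groups were taken from the library titles. Per the submitters' processing notes, the authors used Cufflinks, and the deposited tables give FPKM per gene and per transcript. The deposited log2 fold changes, p-values and q-values come from Cuffdiff, per the same notes. Their versions, the read aligner and the build of the genome are not given in the sources here. The number of unmapped columns was 0.

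Ratios were taken as log2 of FPKM + 1 (pseudocount 1) for genes averaging at least 1 FPKM in the pair, and counted at 1.5-fold. Fragment totals were inferred from the FPKM spacing of genes with 1 transcript, FPKM up to 0.3 and length of at least 500 bp. Estimates fell within 0.1 of a whole fragment for 59.2% of genes for the ham-3(RNAi)-labelled library, 57.9% in swsn-2.2(RNAi) and 60.5% in gfp(RNAi), where 20% would by chance. The 95% intervals of log2 FPKM ratios are Clopper-Pearson intervals from these fragments. For genes with several transcripts they are approximate, because fragments were summed over transcripts. Transcript lengths and coordinates came from the Ensembl WBcel235 annotation. Of the genes with 1 transcript in the tables, 38650 matched it, and 80.8% of these shared a start or end. Transcripts ZC416.8a and ZC416.8b were taken as unc-17 and cha-1. The fold call and the depth inference were tested on simulated data, the latter from whole fragment counts. The intervals and the summing over transcripts were not. Python 3.11.15, numpy 2.4.6, pandas 2.3.3 and scipy 1.17.1 were used.

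The genes, lists and naming rules were chosen with earlier results of these data known. Named pathway genes are the 2 largest and 2 smallest ratios per list in each RNAi library over gfp(RNAi). The same rule picked genes of the tissue marker lists, of which the text names those in the authors' lists, myo-1 and the pan-neuronal genes. Those named for their role (cpx-1, unc-18, the snb and snt families, nsf-1, unc-31) were added after their values were seen. Alternatives were pseudocounts of 0.1 and 5, no filter or a mean of at least 5 FPKM, centring, upper-quartile scaling, summed transcripts, and leaving out genes listed at 0 or not tested by the authors. Taking the unc-17 and cha-1 transcripts separately was chosen after seeing the data. Sequences are not analysed here.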

Additional observations from a re-analysis of the deposited data

How the results depend on the processing

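Under every alternative run, 0 of the 8 genes were 1.5-fold higher or lower in any of the 3 comparisons. A milder fold threshold also called 0 at the pseudocount of 1 FPKM and was counted at no other pseudocount. With a pseudocount of 0.1 FPKM, unc-47 stood at 0.36 in the ham-3(RNAi)-labelled library and 0.50 in swsn-2.2(RNAi), each over gfp(RNAi). Their median log2 ratio lay between -0.07 and -0.02 in the ham-3(RNAi)-labelled library over gfp(RNAi), between -0.01 and 0.08 in swsn-2.2(RNAi) over gfp(RNAi), and between -0.06 and 0.0014 in the ham-3(RNAi)-labelled library over swsn-2.2(RNAi). Centring changed the sign of the median in the second and the last comparison, to -0.0092 and 0.0014, and upper-quartile scaling kept both signs, at 0.03 and -0.00028. For single genes, 1 value moved by more than its counting error: snb-1 in swsn-2.2(RNAi) over gfp(RNAi) was -0.12 when centred on all genes kept. Of the lists, other transmitter genes stood at 0.25 with a mean FPKM of at least 5, and hypodermis markers at -0.23 without genes the authors did not test, both in swsn-2.2(RNAi) over gfp(RNAi). The pharynx median there was -0.07 with a mean FPKM of at least 5, -0.03 when centred and 0.17 without genes the authors did not test. Depth limits unc-47, unc-17 and cha-1 most. No paired analysis was possible because each group has 1 library.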

Other observations

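Genes of other transmitters had medians of -0.05 in the ham-3(RNAi)-labelled library over 9 genes and 0.07 in swsn-2.2(RNAi) over 8 genes, each over gfp(RNAi). The vesicular monoamine transporter gene cat-1 was at 1.06 FPKM in the ham-3(RNAi)-labelled library, 1.24 in swsn-2.2(RNAi) and 1.60 in gfp(RNAi). The glutamate-gated chloride channel gene avr-15 was at 11, 16.2 and 13.1 FPKM in that order, log2 ratios of -0.22 and 0.29, on opposite sides of gfp(RNAi). The tyrosine hydroxylase gene cat-2, of dopamine synthesis, was at 1.39, 1.35 and 1.17 FPKM. The glutamate receptor gene glr-2 was at 1.17, 1.08 and 1.06 FPKM, and the glutamate-gated chloride channel genes glc-4 and avr-14 were at 4.82, 5.66 and 4.58 FPKM and at 5.03, 4.83 and 4.79 FPKM.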
